A study of Drosophila melanogaster with 6 samples.

Results

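GAGA factor (GAF, the product of Trl) left 464 peaks on chromosome 4 and on 5 scaffolds of assembled heterochromatin, out of 11713 peaks in the deposited list (3.96%). The members are all peaks that the list places on sequence 4 (100 peaks), 2LHet (44), 3LHet (142), 3RHet (156), XHet (8) or YHet (14). The choice was made by sequence name and used no score. The euchromatic comparison is with the 4569 peaks of 2L, 3L and 3R. The list rests on 3 GAF ChIP libraries and 3 input libraries. Input is chromatin DNA that went to sequencing with no antibody step. All 6 came from whole embryos aged 8 to 16 h, cross-linked in 1.8% formaldehyde for 15 min, and the antibody KW3-Trl-D2 is a rabbit polyclonal against part of GAF. Both kinds of library share the strain Y cn bw sp. Its listed alleles are y[1] with oc[R3.2], then Gr22b[1], Gr22d[1] and cn[1], further CG33964[R4.2], bw[1] and sp[1], and lastly LysC[1], lab[R4.2] and MstProx[1], besides GstD5[1] with Rh6[1]. Whole embryos mix all cell types, and the sex of the embryos is not given in the sources used here.

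GAF is a zinc finger protein of Drosophila that binds GAGAG and related GA-rich DNA, and its BTB domain lets it form multimers. It is known for opening chromatin at promoters and for acting at Polycomb and Trithorax target genes, and it has also been found on GA-rich satellite repeats of centric heterochromatin. Chromosome 4 is the small autosome, on which active genes lie among repeats in chromatin rich in the heterochromatin protein HP1a and in POF, a protein that marks this chromosome. It carries developmental genes such as ci, ey, toy, pan and zfh2. The scaffolds named Het hold assembled pieces of the heterochromatin next to the centromeres or, for YHet, of the Y chromosome, which only males carry and which holds male fertility genes among satellite repeats. Peaks are given here by position and not by gene, because no annotation of the same release was used.

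Each peak has a position and 1 score, the authors' own value, whose scale is not given in the sources used here. No value per library was used, so the values below carry no replicate error and no test was made between sequences. Intervals are 95% intervals (Wilson for shares, exact Poisson for densities, order statistics for medians) that cover counting error only. They take peaks as independent, which neighbouring peaks are not. The number of reads behind each peak is unknown. Density is given per Mb of span, where the span of a sequence reaches from the start of its first listed peak to the end of its last.

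Chromosome 4 held more peaks of middle score than the arms and fewer weak ones. Scores from 100 to under 500 were held by 40 of its 100 peaks (interval of the share 30.9 to 49.8%) against 24.6% of the arm peaks (23.4 to 25.8), a difference of 15.4 percentage points (6.27 to 25.3). The scaffolds had 37.9% of their peaks in this class (33.1 to 43.0), so the higher share was not particular to chromosome 4. The class was chosen after the scores were seen. Over all 100 peaks of chromosome 4, scores ran from 8.42 to 1405.63, with quartiles of 32.4 and 345. The median score was 147 on chromosome 4 (86.7 to 233) against 66.8 on the arms (60.2 to 74.7), and the difference of the medians was 79.9 (19.4 to 166). With peaks under 500 bp apart joined it was 51.7, with an interval that reached past 0 (-35.6 to 198). The medians of single arms were 62.7 on 2L, 67.1 on 3L and 71.2 on 3R. Peaks that scored under 20, called weak here, made up 19.0% of chromosome 4 (19 of 100; 12.5 to 27.8) against 29.2% of the arms (1336 of 4569; 27.9 to 30.6) and 27.4% of the whole list. Peaks that scored 300 or more, called strong, made up 32.0% of chromosome 4 (23.7 to 41.7) against 29.3% of the arms (28.0 to 30.6) and 24.4% of the whole list, so the intervals of the strong share overlapped. At or above the list median of 64.7 lay 63.0% of the peaks of chromosome 4 (53.2 to 71.8) and 50.6% of those of the arms (49.2 to 52.1). Among these higher peaks the order of the medians turned: the median of chromosome 4 was then 78.7 below that of the arms (difference -78.7, interval -157 to -28.0). When each peak of chromosome 4 was set against each arm peak, it had the higher score in 54.6% of these pairs, which is close to an even split.

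**Figure D1:**
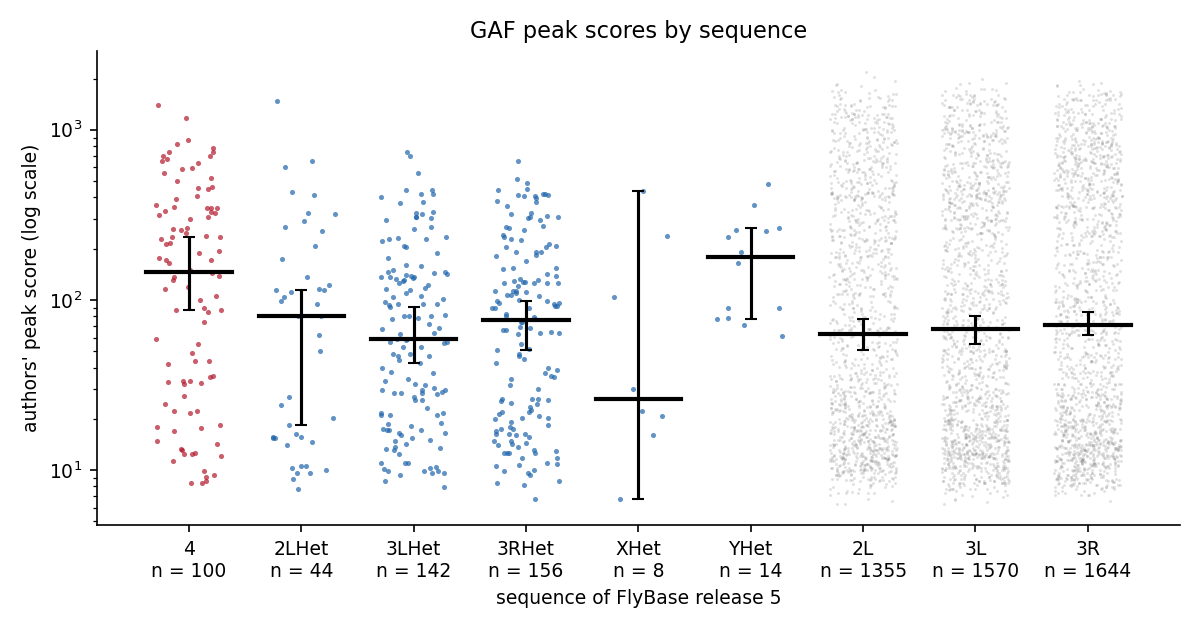
Score of every peak on chromosome 4 (red), the 5 heterochromatic scaffolds (blue) and the arms 2L, 3L and 3R (grey), on a log scale. Horizontal bars are medians and error bars their 95% intervals from order statistics. The median of chromosome 4 is 147, those of the arms lie between 62.7 and 71.2, and the 14 peaks of YHet start at 61.24.

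The 2 highest scores of chromosome 4 belonged to neighbours. The peak with the highest score, 1405.63, ran from 521564 to 524310 on chromosome 4 of FlyBase release 5 and was 2747 bp wide. The next, with a score of 1167.31, began within 1000 bp of it and ran from 525016 to 529531. It was also the widest of the chromosome at 4516 bp. Between them sat a 359 bp peak from 524491 to 524849 that scored 8.42, the lowest value of the chromosome, which a peak from 1296164 to 1296438 shared. The next 3 peaks by score lay elsewhere. They were 980362 to 981282 with a score of 871.26, 1290703 to 1291589 with 819.47, and 827592 to 829033 with 777.1. All 5 were below the highest scores of 2L (2174.57), 3L (1990.84) and 3R (1925.77).

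Peaks covered chromosome 4 unevenly along its length. In windows of 100 kb, the number of peaks ranged from 2 to 12 with a median of 7.5. The windows from 900001 to 1000000 and from 1200001 to 1300000 held 12 peaks each, 4 and 6 of them strong. Their summed scores were 3218 and 3805, and the window from 500001 to 600000 reached 3395 with only 5 peaks. The windows from 100001 to 200000 and from 1000001 to 1100000 held 2 peaks each, and their summed scores were 57.9 and 71.0. The windows from 600001 to 700000 and from 700001 to 800000 held 8 and 5 peaks, with 0 strong ones in each. The longest stretch without a peak ran from 1029366 to 1161610, which is 132245 bp. Beyond it, the 25 peaks from 1161611 to 1347858 had a median score of 214, against 135 for the 75 peaks before it. Density was 134 per Mb beyond the stretch and 76.2 per Mb before it, with the 132245 bp of the stretch counted on neither side. Leaving out the longest empty stretch raises the density next to it by construction. These densities therefore cannot show whether peaks were denser on either side. The split at this stretch was chosen after the values were seen.

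The number of peaks per Mb was somewhat higher on chromosome 4 than on the arms. It was 76.8 per Mb of span on chromosome 4 (62.5 to 93.4) against 60.6 on the arms (58.8 to 62.3), a ratio of 1.27 (exact conditional interval 1.03 to 1.55). With peaks under 500 bp apart joined, the ratio was 1.17 and its interval (0.915 to 1.48) included equal densities. Peaks covered 6.20% of the span of chromosome 4 and 5.01% of that of the arms. Median widths were 571 bp on chromosome 4 (484 to 693) and 528 bp on the arms (513 to 546), with a difference of 43 bp (-45.8 to 166). Peaks of 1000 bp or more made up 19.0% of chromosome 4 (12.5 to 27.8), against 23.5% of the arms (22.3 to 24.8) and 16.3% of the list. Of the 32 strong peaks of chromosome 4, 16 were that wide (50.0%, 33.6 to 66.4), against 65.9% of the 1339 strong arm peaks (63.4 to 68.4). Those strong arm peaks also had a higher median score, 669 against 512 on chromosome 4.

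The scaffolds had a median score like that of the arms but few of the highest scores. Over the 364 scaffold peaks the median score was 74.1 (58.3 to 90.1), against 66.8 on the arms. With peaks under 500 bp apart joined, the median of the scaffolds fell below that of the arms by 22.5 (difference -22.5, interval -44.0 to -0.777). Strong peaks made up 12.9% of the scaffolds (47 of 364; 9.85 to 16.7) against 29.3% of the arms, a difference of -16.4 percentage points (-19.7 to -12.3). The deficit lay at 500 or more. A score of 500 or more was reached by 8 scaffold peaks (2.20%, 1.12 to 4.28), by 17 peaks of chromosome 4 (17.0%, 10.9 to 25.5) and by 910 arm peaks (19.9%, 18.8 to 21.1). Scores from 300 to under 500 made up 10.7% of the scaffold peaks (7.94 to 14.3) and 9.39% of the arm peaks (8.58 to 10.3), and scores from 200 to under 300 made up 8.79% and 6.04%. From 50 to under 500 as a whole, a class chosen after the scores were seen, the shares were 55.5% on the scaffolds (50.4 to 60.5) and 34.2% on the arms (32.9 to 35.6). Weak peaks made up 24.2% of the scaffolds (20.1 to 28.8), and the difference from the arms was -5.06 percentage points (-9.39 to -0.233).

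**Figure D2:**
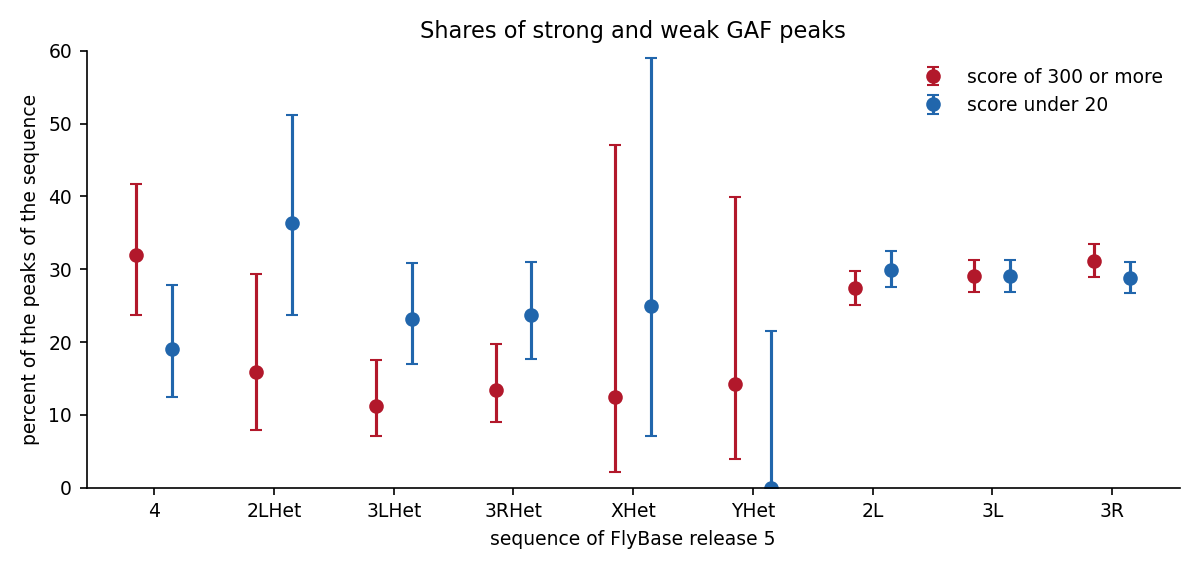
Percent of the peaks of each sequence with a score of 300 or more (red) and under 20 (blue), with 95% Wilson intervals. On 3LHet and 3RHet the strong share lies at 11.3% and 13.5%, below those of 2L, 3L and 3R, and YHet has no peak under 20.

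Scaffold peaks were narrow, also at like score. The median width was 411 bp on the scaffolds (393 to 425) against 528 bp on the arms, a difference of -117 bp (-142 to -96.5). Only 14 of 364 scaffold peaks were 1000 bp wide or more (3.85%, 2.30 to 6.35). From a score of 100 to under 200, the median width was 438 bp on the scaffolds (quartiles 411 and 478, 67 peaks) against 567 bp on the arms (quartiles 485.5 and 738, 418 peaks). Chromosome 4 had 475 bp in this class (14 peaks), also below the arms. From 50 to under 100 it had 518 bp (8 peaks), above the 443 bp of the arms. From 300 to under 500 it was 675 bp for 39 scaffold peaks, 794 bp for 15 peaks of chromosome 4 and 859 bp for 429 arm peaks. Under a score of 20 the order was reversed, with 301.5 bp on the scaffolds and 285 bp on the arms. Width and score were less tightly related over the scaffolds (Spearman rho 0.630, 364 peaks) than over chromosome 4 (0.831, 100 peaks) or the arms (0.843, 4569 peaks). These values describe peaks of 1 list, and width and score come from the same peak calls.

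A small set of scaffold peaks was broad and faint. Of the 14 wide scaffold peaks, 5 scored between 20.98 and 29.66. They were 3LHet 669451 to 671124 (1674 bp), 3LHet 1835266 to 1836551 (1286 bp), its neighbour 3LHet 1836668 to 1838617 (1950 bp), 3LHet 2206622 to 2208607 (1986 bp) and 3RHet 2451008 to 2453406 (2399 bp). The last was the widest peak of all 5 scaffolds. No scaffold peak with a score from 50 to under 300 was as wide as 1000 bp. These peaks were singled out after their values were seen. On the arms, 44 of 759 peaks with a score from 20 to under 50 were that wide (5.80%), against 5 of 66 on the scaffolds (7.58%), so broad and faint peaks were listed on both.

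**Figure D3:**
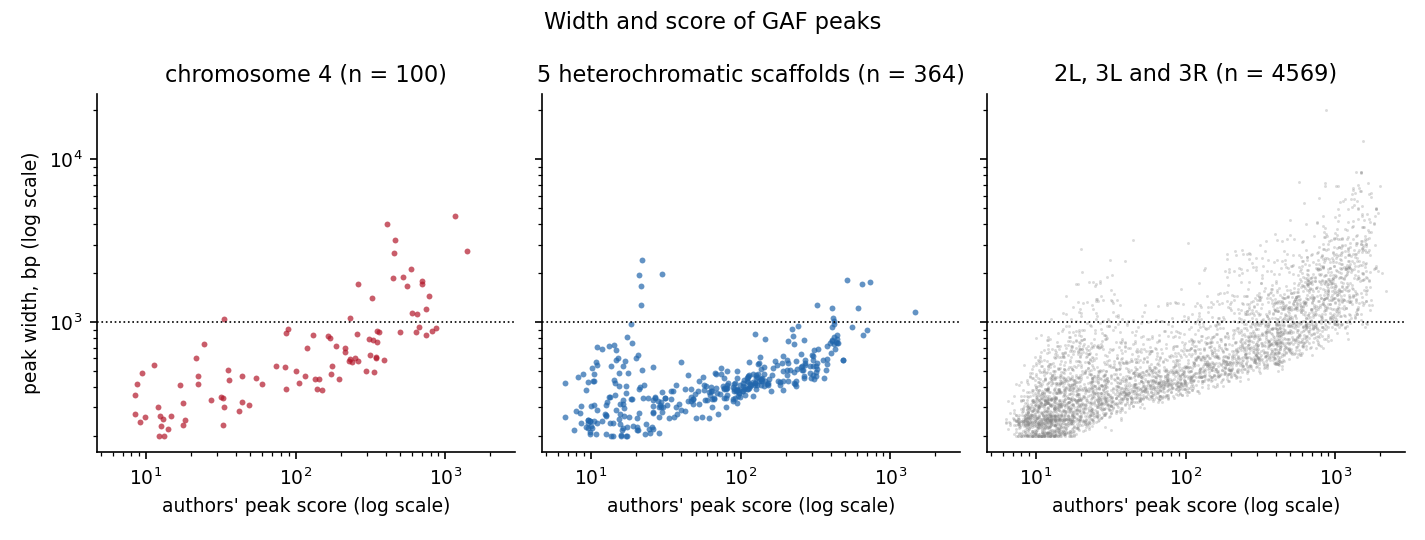
Width against score of each peak, both on log scales, for chromosome 4 (red, left), the 5 heterochromatic scaffolds (blue, middle) and the arms 2L, 3L and 3R (grey, right). The dotted line marks 1000 bp. Scaffold peaks form a narrow band that stays under the line up to a score of 300, apart from the 5 faint peaks between 20.98 and 29.66.

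On 2LHet, the piece of heterochromatin of the left arm of chromosome 2, density was the highest of the 6 sequences. It had 124 peaks per Mb of span (89.9 to 166), and chromosome 4 had 0.621 times that density (0.431 to 0.907). Neighbours on 2LHet were a median of 2034 bp apart (1204 to 5732), against 5448.5 bp on chromosome 4 and 5643 bp on the arms. Weak peaks made up 19.0% of chromosome 4 and 36.4% of 2LHet (16 of 44; 23.8 to 51.1), a difference of -17.4 percentage points (-33.5 to -2.02). The arms had 29.2% and the whole list 27.4%, both inside the interval of 2LHet. The difference of 2LHet from the arms was 7.12 percentage points (-5.53 to 22.0). The last listed peak of 2LHet, from 367817 to 368970, scored 1472.58, above every other member, chromosome 4 included. The next on 2LHet were 147443 to 149159 with 650.48 and 123982 to 125201 with 604.91, followed by 212727 to 213409 with 429.35 and 323010 to 323948 with 411.03. The lowest, from 210902 to 211118, scored 7.76. The span of 2LHet is 0.356 Mb, so its density rests on 44 peaks, and 74029 bp from 49953 to 123981 held no peak.

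On 3LHet and 3RHet, the largest of the scaffolds used, peak density was close to that of the arms. It was 56.6 per Mb on 3LHet (47.6 to 66.7) and 64.3 on 3RHet (54.6 to 75.2). The median score was 59.0 on 3LHet (42.5 to 90.7) and 75.7 on 3RHet (50.7 to 98.2), and that of chromosome 4 was higher by 87.7 (19.9 to 175) and by 70.9 (6.91 to 161). The median width of chromosome 4 was 165 bp above that of 3LHet (73.0 to 290) and 152 bp above that of 3RHet (62.5 to 276). Strong peaks on 3LHet numbered 16 of 142, led by 275345 to 277111 with a score of 737.45, 877912 to 878808 with 696.23 and 1395065 to 1396000 with 557.53. The next by score were 73836 to 74668 with 444.17 and 316933 to 317717 with 442.31. On 3RHet 21 of 156 peaks were strong, led by 1720468 to 1721307 with 655.64, 767984 to 769792 with 512.51 and 2308090 to 2308673 with 485.59. The next by score were 1196047 to 1196795 with 450.7 and 2080353 to 2081093 with 444.17. The highest scores of both scaffolds lay below that of chromosome 4 and below those of all 3 arms. The densest 100 kb of 3LHet, from 2200001 to 2300000, held 15 peaks with a median score of only 16.1, while that of 3RHet, from 2300001 to 2400000, held 14 with a median of 74.5. The longest stretches without a peak were 169366 bp on 3LHet, from 74669 to 244034, and 118695 bp on 3RHet, from 267848 to 386542.

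The Y scaffold had few peaks, none of them weak. Its 14 peaks scored between 61.24 and 480.86, with a median of 178 (77.3 to 265) and quartiles of 80.7 and 256. The 5 highest were 132611 to 133194 with 480.86, 299502 to 299954 with 361.81, 72460 to 73234 with 265.37, 326195 to 326707 with 256.2 and 318898 to 319431 with 253.82. The lowest, from 326812 to 327069, scored 61.24 and was 258 bp wide. Weak peaks numbered 0 of 14 on YHet, which allows a share of up to 21.4% by the limit of 3 counts of the total, against 25.1% on the other 4 scaffolds (88 of 350; 20.9 to 29.9) and 29.2% on the arms. The median of YHet was 110 above that of the other scaffolds (7.32 to 199) and 111 above that of the arms (10.2 to 199). The difference from the other scaffolds was 141 (-17.1 to 269) with peaks under 500 bp apart joined and 46.1 (-76.2 to 121) with only the peaks that reached the list median, so both of these intervals included 0. Strong peaks numbered 2 of 14 on YHet (14.3%, 4.01 to 39.9) and 45 of 350 on the other scaffolds (12.9%, 9.75 to 16.8). With strong set at 200 or more, they were 6 of 14 on YHet (42.9%, 21.4 to 67.4) and 73 of 350 on the other scaffolds (20.9%, 16.9 to 25.4). That difference was 22.0 percentage points (0.0446 to 46.9). The arms had 35.3% at this cut (34.0 to 36.7), inside the interval of YHet, and chromosome 4 had 43.0%. With strong set at 500 or more, YHet differed from the other scaffolds by -2.29 percentage points (-4.44 to 19.3).

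Against single scaffolds, YHet had the higher median in each case, but the interval of the difference left out 0 only for 3LHet. The median of YHet differed by 119 from that of 3LHet (13.5 to 208), by 102 from that of 3RHet (-0.870 to 193), by 97.4 from that of 2LHet (-8.81 to 205) and by 152 from that of XHet (-270 to 241). The median of chromosome 4 was 31.3 lower than that of YHet (difference -31.3, interval -137 to 101), so the order of these 2 is not settled by their peaks. Peaks of YHet were all under 1000 bp, the widest being 775 bp, and their median width of 400 bp (328 to 534) was 11 bp below that of the other scaffolds (-84.3 to 124). Density was 43.4 peaks per Mb on YHet (23.7 to 72.8) and 63.7 on the other scaffolds (57.2 to 70.7), with a ratio of 0.682 (0.369 to 1.16). Of the 14 peaks of YHet, 7 had their midpoint beyond 300000, and the 140891 bp from 137563 to 278453 held none.

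On XHet 8 peaks were listed, and 5 of them scored 29.87 or less. They scored 435.85 (20 to 772), 236.56 (188521 to 189039), 103.54 (23922 to 24299), 29.87 (131881 to 132254), 22.32 (56256 to 56596), 20.65 (196122 to 196753), 15.97 (35347 to 35546) and 6.72 (203397 to 203659). The highest of them is the first peak listed on the scaffold and the lowest the last. The median was 26.1, and its interval spans all 8 values, so XHet cannot be placed above or below the other sequences. No 2 peaks of XHet were close, the smallest distance between midpoints being 7090.5 bp, while 42.9% of the peaks of YHet (6 of 14) and 53.0% of those of chromosome 4 had a neighbour less than 1000 bp from edge to edge.

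On the large scaffolds, peaks came in pairs more often than on the arms. A neighbour less than 1000 bp away was found for 61.0% of the 364 scaffold peaks (55.9 to 65.9), for 53.0% of the peaks of chromosome 4 (43.3 to 62.5), for 46.3% of the arm peaks (44.8 to 47.7) and for 41.5% of the list. These distances run from the end of a peak to the start of the next. With peaks closer than 1000 bp in this sense taken as a group, 39 of 98 groups of 3RHet were pairs (39.8%, 30.7 to 49.7), 22 of 89 of 3LHet (24.7%, 16.9 to 34.6), 16 of 69 of chromosome 4 (23.2%, 14.8 to 34.4) and 471 of 3223 of the arms (14.6%, 13.4 to 15.9). Groups of 3 or more numbered 22 of 234 on the scaffolds and 298 of 3223 on the arms. The largest group had 7 peaks on the scaffolds, 4 on chromosome 4 and 15 on the arms.

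Within these pairs, distances were also measured between the midpoints of the peaks, which exceed the distance between their edges and can pass 1000 bp. Over the 70 scaffold pairs the midpoints were a median of 795.5 bp apart (quartiles 744 and 890), and over the 39 of 3RHet 790 bp (740 and 856). The 16 pairs of chromosome 4 had a median of 986 bp and the 471 of the arms 1028 bp (813 and 1507). Of all midpoint distances between neighbours, 22.3% on the scaffolds (80 of 359; 18.3 to 26.9) were from 700 to under 1000 bp, against 12.1% on chromosome 4 (7.07 to 20.0), 9.02% on the arms (8.23 to 9.89) and 8.78% in the list. The band was chosen after the distances were seen. Peak width moved with this result, with narrower peaks on the scaffolds. Among pairs of peaks both under 600 bp wide, the median distance was 791 bp on the scaffolds (63 pairs) and 806 bp on the arms (161 pairs). Among neighbours both that narrow, 24.0% of distances on the scaffolds (19.2 to 29.5) and 14.3% on the arms (12.6 to 16.2) fell in the band. Median distances of narrow pairs were thus alike, but pairs by definition lie less than 1000 bp from edge to edge. Among all narrow neighbours the band share stayed higher on the scaffolds, by 9.64 percentage points (4.53 to 15.4). Chromosome 4 had 3 of 30 such narrow distances in the band (10.0%, 3.46 to 25.6). Of all distances, the band held 1 of 13 on YHet and 0 of 7 on XHet. The higher scaffold share thus comes from 2LHet, 3LHet and 3RHet.

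**Figure D4:**
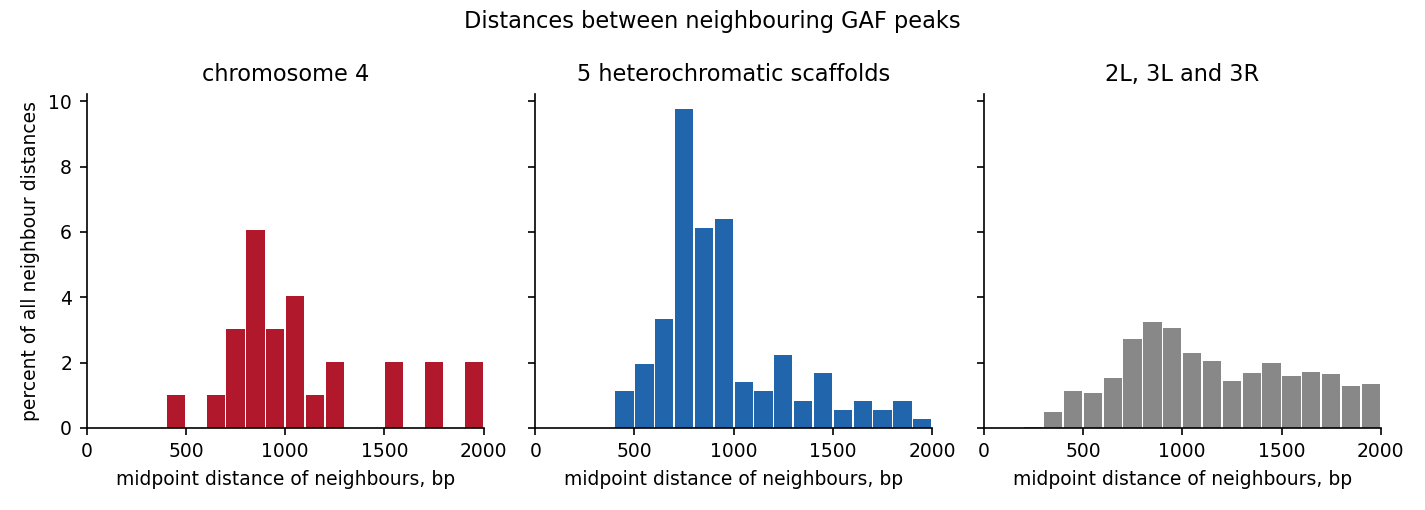
Percent of all distances between midpoints of neighbouring peaks that fall in each 100 bp class up to 2000 bp, for chromosome 4 (red, left), the 5 heterochromatic scaffolds (blue, middle) and the arms 2L, 3L and 3R (grey, right). The class of 700 to 800 bp holds 9.75% of the distances on the scaffolds and 2.72% on the arms.

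Both peaks of a pair scored 50 or more in a larger share of pairs on the scaffolds together than on the arms. The lower of the 2 scores had a median of 45.9 over the scaffold pairs, 69.0 over those of chromosome 4 and 17.8 over those of the arms. Both scored 50 or more in 34 of 70 scaffold pairs (48.6%, 37.2 to 60.0), in 8 of 16 pairs of chromosome 4 (50.0%, 28.0 to 72.0) and in 125 of 471 arm pairs (26.5%, 22.8 to 30.7). By scaffold, these were 15 of 39 pairs on 3RHet (38.5%, 24.9 to 54.1) and 13 of 22 on 3LHet (59.1%, 38.7 to 76.7). On 2LHet they were 3 of 6 and on YHet 3 of 3. The interval of 3RHet includes the share of the arms. An example of such a pair on 3LHet lies from 411570 to 412047 (score 204.65) and from 412263 to 412840 (235.01). On YHet all 3 pairs had the higher score on the left, with 361.81 and 90.11, 253.82 and 70.95, and 256.2 and 61.24. Over all 70 scaffold pairs the left peak was higher in 37, so neither side led. On chromosome 4 the pair with the highest score ran from 980362 to 981282 (871.26) and from 981594 to 982016 (105.33).

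The closest midpoints of neighbours lay between 439.5 and 521 bp apart on the sequences other than XHet. On chromosome 4 they belonged to a 234 bp peak from 702217 to 702450 that scored 32.58 and a 534 bp peak from 702557 to 703090 that scored 84.48, with midpoints 490 bp apart. On 2LHet the closest midpoints were 439.5 bp apart, within a faint stretch from 14032 to 14707 where both peaks scored 10.05 or less. On 3LHet the closest midpoints were 467 bp apart, between neighbours from 1894588 to 1895423 whose group also held a further peak. On 3RHet they were 521 bp apart, in a pair from 1095339 to 1096188. On YHet they were 457.5 bp apart, in the pair from 318898 to 319758.

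The share of the span under peaks was 6.20% of the span on chromosome 4, 6.00% on 2LHet, 2.67% on 3LHet, 3.07% on 3RHet, 1.699% on XHet and 1.91% on YHet, against 4.84% on 2L, 5.13% on 3L and 5.03% on 3R. Chromosome 4 and 2LHet were thus above each of the 3 arms, and the other 4 scaffolds below. On 3LHet and 3RHet, where density was near that of the arms, the lower share went with narrower peaks. XHet and YHet also had fewer listed peaks per Mb, 39.3 (17.0 to 77.4) and 43.4 (23.7 to 72.8). Both intervals include the 60.6 per Mb of the arms, so a lower density there is not settled. On 2LHet a high share went with a high density and a median width of 414 bp (383 to 468).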

How the data were processed

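The authors deposited 1 peak list for the series, with a start, an end and a score per peak. CASAVA (versions 1.7.0.2 and 1.7.0.3), MACS2, BWA and the build BDGP5 are named in the submitters' processing notes. Positions refer to FlyBase release 5, per the file headers. Not given in the sources used here are the scale of the score, the calling threshold, the way libraries were combined and how reads from repeats were placed. Depth per library is unknown. Starts are counted from 1 here, since the smallest listed start was 0.

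Members were taken by sequence name. Members, measures and thresholds were chosen with earlier results of these data known. Peaks named are, on each sequence, the 5 highest scores (all where there are 10 or fewer), the widest, the lowest, the closest pair and the longest gap, and the densest window. Intervals of differences combine those of both groups. Joining merged peaks under 500 bp apart from edge to edge, and a joined peak took the highest score among its members. Functions were tested on simulated data. Computations ran in Python 3.11.15 with scipy 1.17.1, numpy 2.4.6 and pandas 2.3.3, and figures in matplotlib 3.10.9. Motif and gene analyses, planned for a genome and annotation of release 5, were not run. 2RHet, 2R, X, U, Uextra and mitochondrial peaks were left out of the comparisons.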

Additional observations from a re-analysis of the deposited data

Results flagged for a closer look

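The scaffold 2RHet is outside the comparisons by sequence and held 183 peaks, which drew attention because it is data those comparisons do not use. Its median score was 58.8 (40.8 to 74.7), its median width 394 bp (367 to 418) and its share of strong peaks 11.5% (7.63 to 16.9). Of its 119 groups of peaks closer than 1000 bp, 34 were pairs (28.6%, 21.2 to 37.3) with a median distance of 823 bp. Of its 182 midpoint distances between neighbours, 25.3% were from 700 to under 1000 bp (19.5 to 32.1).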

How the results depend on the processing

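The 23 results gave 93 values under other settings, and 78 of these stayed within the interval of the main value (for the covered share and counts, within 1.5 times). With only the 5857 peaks that reached the list's median score, the values of chromosome 4 against the arms were a density ratio of 1.58, a median score difference of -78.7, a width difference of -106.5 bp, a strong share difference of -7.07 percentage points and a difference in median spacing of -10265 bp. For the scaffolds against the arms they were -240 in score, -443 bp in width and -33.4 percentage points in the strong share. For YHet against the other scaffolds they were a density ratio of 1.24, a strong share difference of -9.76 percentage points, a spacing difference of -10112 bp and a covered share ratio of 1.02, which is 0.630 in the whole list. In 4 values the interval came to include no difference, where that of the whole list did not. With joining under 500 bp these were the density ratio (1.17) and median score difference (51.7) of chromosome 4 against the arms and the score difference of YHet (141), and with the higher peaks only the score difference of YHet (46.1). With joining, the scaffolds differed from the arms by -22.5 in median score, -171 bp in width and 1988 bp in spacing. The score filter removes weak peaks by construction; for joining, the cause was not tested. Adding 2RHet to the scaffolds, and both alternatives of the distance band, were chosen after the data were examined. No paired analysis was possible because there are no separate values for each library, which also means that leaving out replicates could not be done. Sequence length as denominator, motif and gene alternatives were not run.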

Other observations

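Groups of 4 or more peaks, each closer than 1000 bp to the next, differed in strength. The largest was faint: 7 peaks on 3LHet from 2202712 to 2208607 scored between 10.15 and 29.66. Another faint group of 4 lay on 3LHet from 1961638 to 1964397 (9.81 to 29.5), and one of 4 on 2LHet from 13172 to 15714 (9.57 to 14.52). Other groups had no weak member. On chromosome 4 the 4 peaks from 1260165 to 1264332 scored between 163.69 and 347.83, and on 3LHet the 4 from 560746 to 563914 scored between 109.57 and 375.95. The groups on 3LHet from 877912 to 882174 (5 peaks, 11.04 to 696.23) and on 3RHet from 1720468 to 1724704 (5 peaks, 8.19 to 655.64) each joined 1 of the strongest peaks of its scaffold with weak ones. These groups were chosen by size, and no explanation was tested.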
